A study of Sus scrofa with 22 samples.

Results

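The genes described here are 9 targets of the transcription factor p53 that act in cell cycle arrest and programmed cell death: CDKN1A, MDM2, BAX, BBC3, PMAIP1, CCNG1, GDF15, FAS and RRM2B. They were chosen by symbol from a list, and all 9 were found among the 26838 genes common to the annotations of the deposited count tables. The libraries came from pig foliate papillae, the taste bud-bearing folds at the side of the tongue, and from organoids grown out of papilla cells. Organoids were fed LPM, an abbreviation the labels leave unexplained. Passage 1 organoids (n = 5 pigs) were set against native papillae of those pigs (n = 5). Organoids in LPM lacking FGF10 (n = 3) were set against organoids in complete LPM (n = 3). Organoids kept in LPM until day 10 and then in a medium labelled CQ until day 16 or 17 (n = 3) were set against organoids kept in LPM alone (n = 3).

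The labels' protocols list in LPM the growth factors FGF10 (100 ng/ml), EGF (50 ng/ml) and FGF2 (10 ng/ml), 10 nM insulin, and also SB202190, an inhibitor of the stress kinase p38, and Y-27632, each at 10 µM. It further held 1.25 µM N-acetyl-cysteine, an antioxidant, and 10 mM nicotinamide, with agonists of the Wnt and Hedgehog pathways and inhibitors of BMP and TGF-beta signalling. The labels of the 6 libraries of the CQ experiment carry no medium recipe, and what CQ contained is unknown here. The organoid libraries are labelled as a foliate cell line, and the labels of the FGF10 and CQ experiments name no pig. The labels of the FGF10 experiment call its libraries biological replicates, without saying whether they are separate cultures or animals, and those of the CQ experiment number them as samples. P-values in both experiments measure the spread between these libraries, which may be technical.

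p53 is a transcription factor held at a low protein level by the ubiquitin ligase MDM2, and it is stabilised by DNA damage, oncogene activity, ribosome stress and other insults. Its activity is set mostly by protein stability and modification. Active p53 raises CDKN1A and other genes that halt the cycle, genes that repair DNA or supply its building blocks, genes that open the mitochondrial route to apoptosis, and MDM2 itself, which closes a feedback loop. Several of these genes are also driven by other factors, among them the kinase signals of the integrated stress response.

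The gene positions below are those of the deposited files, which match Sscrofa11.1. CDKN1A lies on chromosome 7 (32354776 to 32363771), MDM2 on chromosome 5 (33105717 to 33137602) and CCNG1 on chromosome 16 (60349255 to 60356737). BAX (54222341 to 54228150) and BBC3 (53037103 to 53046902) lie on chromosome 6, PMAIP1 on chromosome 1 (161184458 to 161188138) and GDF15 on chromosome 2 (59409035 to 59411356). FAS lies on chromosome 14 (100927305 to 100954781) and RRM2B on chromosome 4 (34823869 to 34859777). All 9 are protein-coding, the values are counts over their annotated exons, and no exon of a member overlapped an exon of another gene. Of the 9 genes, 8 had counts in all 22 libraries, and GDF15 had none in the papilla of pig 3.

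Library totals were 21.79 to 27.77 M counts in passage 1 organoids and 17.04 to 20.71 M in papillae. They were 19.64 to 23.45 M without FGF10 and 20.77 to 25.23 M in its LPM group, and 14.67 to 16 M in CQ and 19.62 to 26.01 M in its LPM group. CQ libraries also detected fewer genes (14014 to 16005) than their LPM libraries (17489 to 17920). Their replicates scattered more, with a median ratio of variance to mean of 12.7 over genes with a mean of 10 to 30 counts, against 1.95 in the LPM libraries. The ratio was lowest in the FGF10 experiment, at 1.27 without FGF10 and 1.22 in its LPM group. It was 5.78 in passage 1 organoids and 3.53 in papillae. Markers of other tongue tissues were lower in sum in passage 1 organoids, for fibroblast, muscle and nerve down to near 0. CPM are counts per 1 M counts of the library. The summed CPM of 7 fibroblast markers were 0.943 to 3.32 in organoids and 1910 to 7040 in papillae, and those of 6 skeletal muscle markers 0.41 to 0.821 in organoids and 208 to 6810 in papillae. Nerve and Schwann markers summed to 0.492 to 1.58 CPM in organoids and 268 to 404 CPM in papillae. Gland markers summed to 26.4 to 170 CPM in organoids and 41200 to 185000 CPM in papillae. The sums of 6 endothelial markers were 25.7 to 130 CPM in organoids and 370 to 565 CPM in papillae, and those of 6 immune markers 21.5 to 87.9 CPM in organoids and 98 to 141 CPM in papillae. Of these, the macrophage marker CD68 was itself higher in organoids (48.8 ± 26.4 CPM, against 17.3 ± 5.11 CPM in papillae, SD, n = 5 each, edgeR adjusted p = 0.00465, with overlap between the groups), whereas PTPRC, CD3E and C1QA were at 0 in all organoids. The endothelial receptor KDR averaged 47.4 ± 36.7 CPM in organoids and 25.9 ± 2.43 CPM in papillae (SD, n = 5 each) and was not called (edgeR adjusted p = 0.0744). The sums of 7 tongue epithelium markers were 6680 to 10200 in organoids and 8120 to 10900 in papillae. The single markers did not stay level. By edgeR 5 were called higher and 2 lower in organoids, with a median log2 fold change of 1.87. KRT5 was at 1690 ± 403 CPM in organoids and 8170 ± 1280 CPM in papillae. KRT8 was at 2160 ± 809 CPM in organoids and 340 ± 127 CPM in papillae (SD, n = 5 each). These CPM are scaled for library composition by the TMM method within each comparison.

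Passage 1 organoids were compared with papillae to describe how cultured taste epithelium differs from its tissue of origin. Every one of the 9 p53 targets was higher in organoids, from 3.45-fold for PMAIP1 to 150-fold for GDF15, and the organoid and papilla libraries did not overlap for any of them. Called genes were common in this comparison. With the edgeR quasi-likelihood test and Benjamini-Hochberg adjusted p under 0.05, 67.4% of the 16311 tested genes passed, with 32.4% higher and 35.1% lower in organoids. Groups were apart for 24.5% of genes on the higher side and 29.5% on the lower. Higher genes made up 48% of the calls with TMM and 59.6% with library size only, which moved the median of all genes by over 0.1 (log2 fold change 0.281). The median log2 fold change was 2.08 for the 9 genes, 1.87 for the 7 tongue epithelium markers and -0.007 for all genes tested. In bulk RNA, fewer cells of a type and less RNA per cell cannot be told apart, and papillae, which hold muscle, connective tissue, glands and nerves, were extracted with another kit than organoids, so kit and tissue cannot be told apart either.

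**Figure D1:**
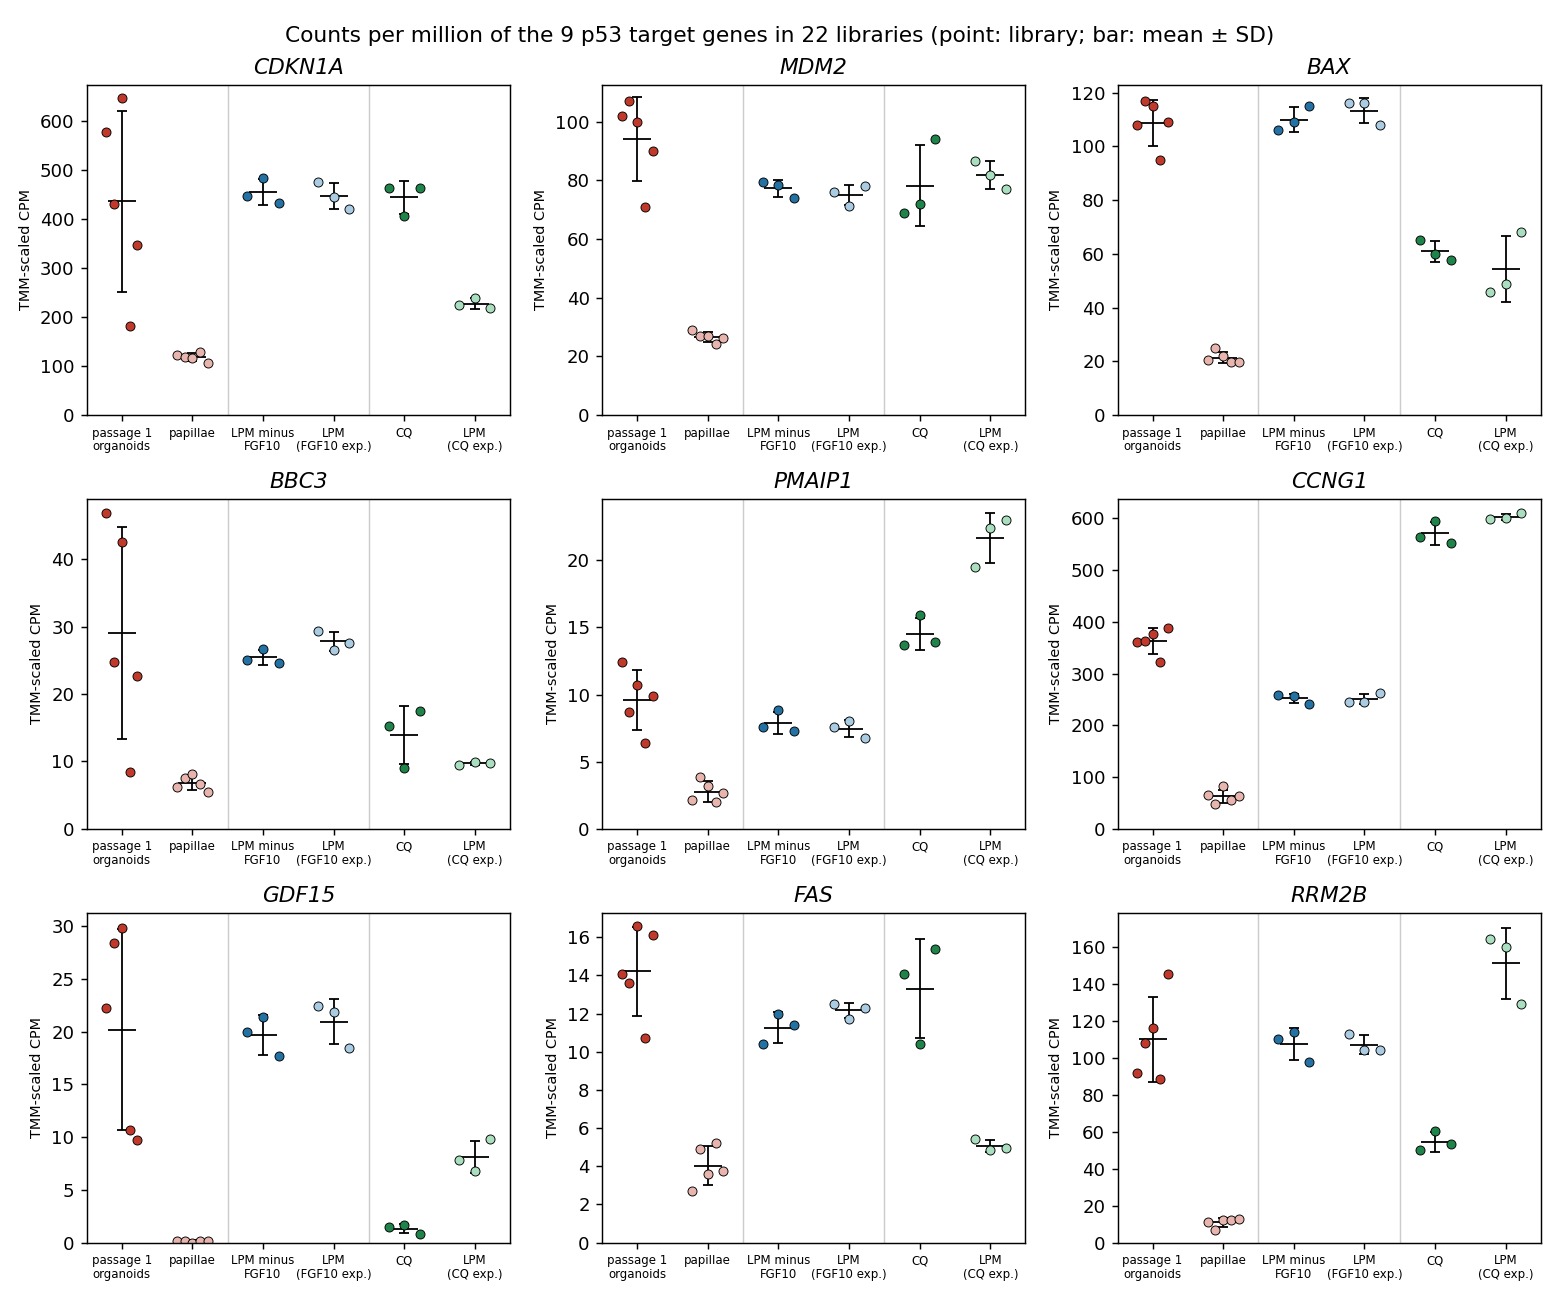
TMM-scaled CPM (vertical axes from 0) of the 9 genes in all 22 libraries, with 1 point per library, a bar for the group mean and whiskers for the SD. In each panel the 5 passage 1 organoid libraries lie above the 5 papilla libraries, the groups with and without FGF10 overlap, and the CQ and LPM groups separate upward for CDKN1A and FAS and downward for PMAIP1, CCNG1, GDF15 and RRM2B. CPM are scaled within each pair of groups.

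Among the genes of cell cycle arrest and repair, CDKN1A, which encodes the cyclin-dependent kinase inhibitor p21, was at 577, 430, 647, 181 and 348 CPM in organoids of pigs 1 to 5, against 122, 118, 116, 128 and 106 CPM in their papillae. The groups did not overlap, and the organoids of pig 4 were the lowest of the 5. The fitted change was 3.69-fold (log2 fold change 1.88, SE 0.286, adjusted p = 0.000136). Within single pigs the ratio of organoid to papilla ran from 1.41 in pig 4 to 5.56 in pig 3.

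CCNG1 encodes cyclin G1, a partner of protein phosphatase 2A in the control of MDM2 and p53. It was at 362, 364, 377, 323 and 389 CPM in organoids, against 64.7, 48.4, 82.6, 55.5 and 63.9 CPM in papillae. Organoids varied little among themselves (363 ± 24.7 CPM, SD, n = 5) and stood far above all papillae, 5.75-fold in the fit (log2 fold change 2.52, SE 0.153, adjusted p = 2.05e-07). RRM2B encodes the p53-inducible small subunit of ribonucleotide reductase, which supplies deoxynucleotides outside S phase. Its CPM were 91.4, 108, 116, 88.4 and 145 in organoids, against 11.2, 6.8, 12.3, 12.2 and 12.7 in papillae. The 9.93-fold difference (log2 fold change 3.31, SE 0.206, adjusted p = 2.49e-07) was present in each pig, from 7.25-fold in pig 4 to 15.8-fold in pig 2, whose papilla was the lowest.

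MDM2, the feedback inhibitor, was at 102, 107, 100, 70.8 and 89.9 CPM in organoids, against 29.1, 26.8, 27, 24.2 and 26.4 CPM in papillae. All organoids were above all papillae, and those of pig 4 were again lowest. The change was 3.52-fold (log2 fold change 1.82, SE 0.127, adjusted p = 5.18e-07).

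BAX, BBC3 and PMAIP1 act at the mitochondrion. BAX forms the pore through which cytochrome c leaves, and BBC3 (PUMA) and PMAIP1 (NOXA) encode BH3-only proteins that block its BCL2-type inhibitors. BAX was at 108, 117, 115, 95 and 109 CPM in organoids, against 20.5, 24.8, 21.8, 19.6 and 19.9 CPM in papillae, 5.1-fold higher (log2 fold change 2.35, SE 0.109, adjusted p = 3.26e-08). It was the steadiest of the death genes, with a range of 4.72- to 5.48-fold over the 5 pigs.

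BBC3 was at 46.9, 24.8, 42.5, 8.45 and 22.6 CPM in organoids, against 6.17, 7.61, 8.2, 6.67 and 5.49 CPM in papillae. Organoids of pig 4 were barely above the highest papilla, and the others were well clear of it. BBC3 rose 4.24-fold (log2 fold change 2.08, SE 0.384, adjusted p = 0.000565), and its coefficient of variation was 53.9% in organoids and 15.9% in papillae. PMAIP1 was at 12.4, 8.69, 10.7, 6.4 and 9.88 CPM in organoids, against 2.16, 3.85, 3.19, 1.97 and 2.68 CPM in papillae. It rose 3.45-fold (log2 fold change 1.79, SE 0.257, adjusted p = 8.79e-05) with no overlap.

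FAS, the death receptor at the cell surface, was at 14.1, 13.6, 16.6, 10.7 and 16.1 CPM in organoids, against 2.72, 4.9, 3.59, 5.21 and 3.75 CPM in papillae. It rose 3.52-fold (log2 fold change 1.81, SE 0.217, adjusted p = 2.31e-05), and the groups were apart. GDF15, a secreted stress cytokine, was at 22.2, 28.4, 29.8, 10.7 and 9.75 CPM in organoids, against 0.185, 0.15, 0, 0.19 and 0.134 CPM in papillae. It was all but absent from papillae, with 11 counts over the 5 libraries and 2528 over the organoid libraries, a depth-scaled ratio of 151 (exact 95% interval 84.4 to 304, counting error only). The fit gave 150-fold (log2 fold change 7.23, SE 0.565, adjusted p = 1.11e-06), and organoids of pigs 4 and 5 held less of it than those of pigs 1, 2 and 3.

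**Figure D2:**
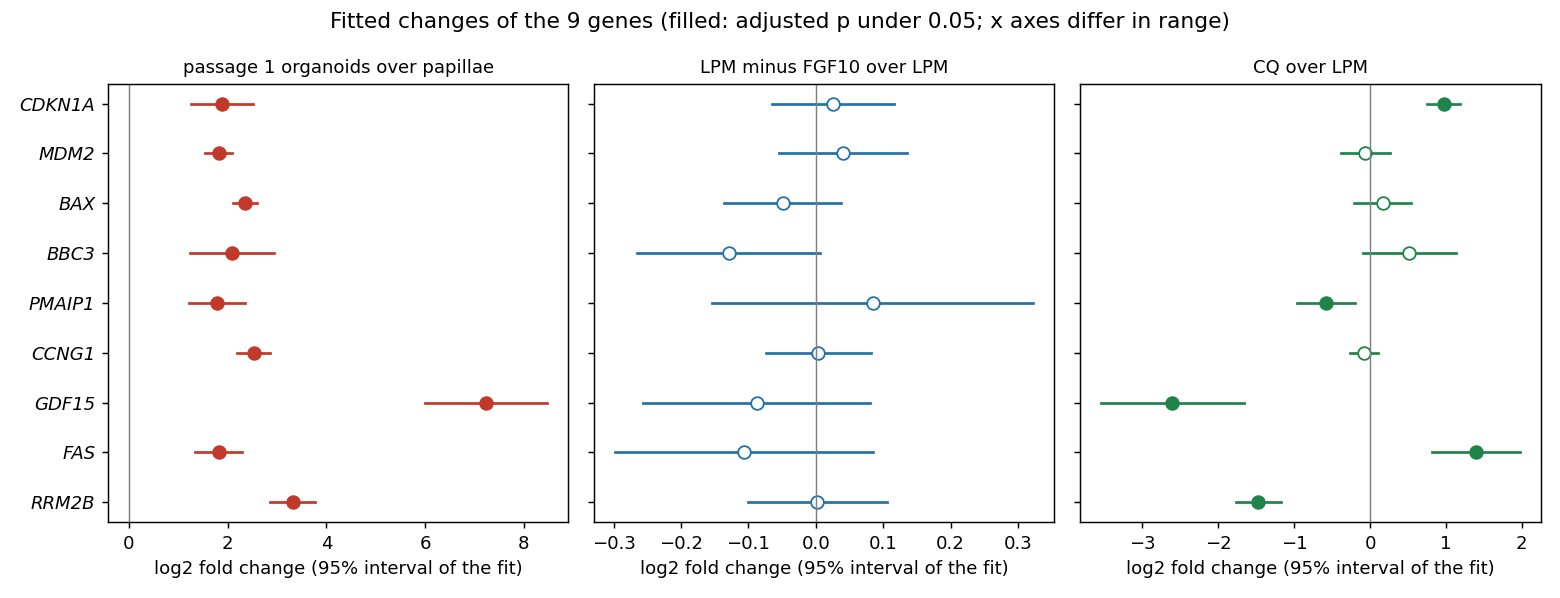
Fitted log2 fold changes (points) of the 9 genes with the 95% intervals of the edgeR fit (lines) in the 3 comparisons, with the x axis scaled separately per panel. All 9 intervals lie above 0 for organoids over papillae, all 9 include 0 for LPM without FGF10 over LPM, and 2 lie above and 3 below 0 for CQ over LPM.

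Organoids of pig 4 held the lowest CPM of the 5 organoid libraries for 8 of the 9 genes, GDF15 being the exception. The same library stood apart in proliferation genes. The summed CPM of 14 G2/M and proliferation genes was 39.5, 154, 62.9, 1160 and 160 in organoids of pigs 1 to 5, against 205, 195, 181, 176 and 183 in papillae, and MKI67, a proliferation antigen, was at 283 CPM in organoids of pig 4 and at 4.6 to 32.9 CPM in the others. The part of this in the lower levels of the p53 targets was not tested. Without that library all 9 genes were still called, CDKN1A at 4.27-fold (adjusted p = 3.32e-06), BBC3 at 5.04-fold (1.21e-05), RRM2B at 10.5-fold (4.33e-07) and GDF15 at 170-fold (1.1e-06).

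**Figure D3:**
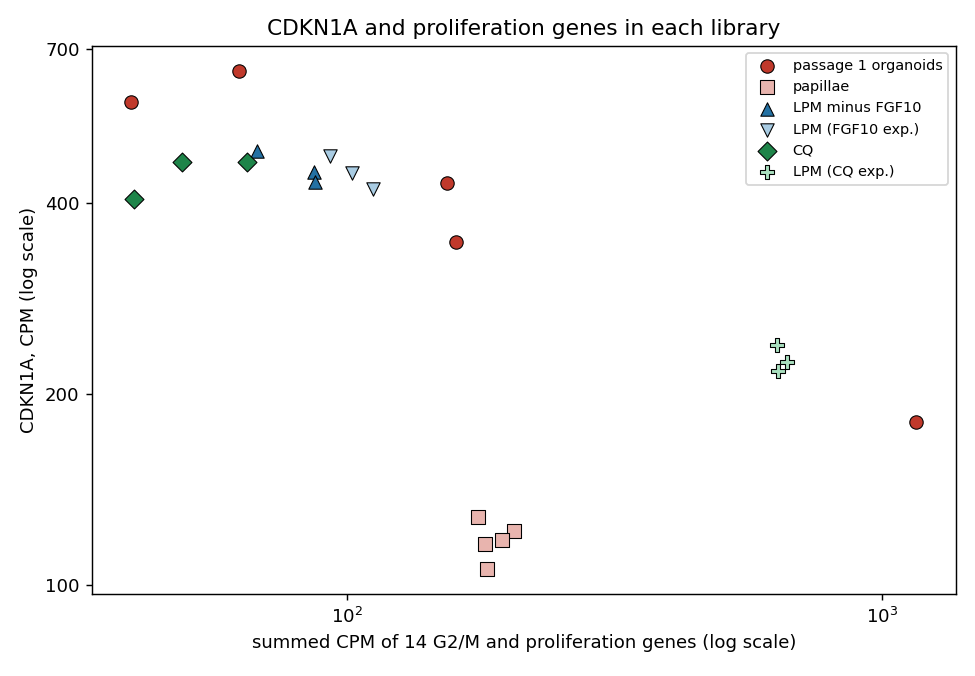
CDKN1A (vertical axis, CPM, log scale) against the summed CPM of 14 G2/M and proliferation genes (horizontal axis, log scale) in each of the 22 libraries, with 1 symbol per group. Organoids of pig 4 (1160 and 181 CPM) and the LPM libraries of the CQ experiment (637 to 665 and 218 to 239 CPM) lie at the lower right, the other organoid and CQ libraries at the upper left, and papillae at the bottom (176 to 205 and 106 to 128 CPM).

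The regulators of p53 went both ways. Of 13 tested p53 family members and regulators 3 were called higher and 4 lower, against 32.4% and 35.1% of all genes tested. HIPK2, a kinase that activates p53, rose 2.36-fold (adjusted p = 4.25e-05) and ATR, the replication stress kinase, 1.58-fold (adjusted p = 0.00699). MDM4, the relative of MDM2 that also restrains p53, fell 2.29-fold (adjusted p = 0.000452), the relative TP73 3.19-fold (adjusted p = 1.83e-05) and USP7, the deubiquitinase of MDM2 and p53, 1.46-fold (adjusted p = 0.00108, and 0.118 with library size only).

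Other p53 targets went both ways, as did all genes tested. Of 21 tested targets in arrest and repair, 10 were called higher and 4 lower, against 32.4% and 35.1% of all genes tested. Their median log2 fold change was 0.18, against 2.08 for the 9 genes. ZMAT3, an RNA-binding protein induced by p53, was at 150 ± 36.3 CPM in organoids and 16.1 ± 2.67 CPM in papillae (SD, n = 5 each), 9.3-fold higher (adjusted p = 2.94e-07), and PLK2, a polo-like kinase, at 234 ± 30.6 CPM in organoids and 50.9 ± 4.96 CPM in papillae (4.6-fold, adjusted p = 1.44e-07). The 14-3-3 sigma gene SFN, which is also abundant in stratified epithelium, fell to 316 ± 121 CPM in organoids, against 1520 ± 209 CPM in papillae (4.81-fold lower, adjusted p = 2.4e-05). SESN1, a stress-induced sestrin, fell 2.88-fold and DRAM1, a lysosomal autophagy regulator, 11-fold (adjusted p = 9.18e-05 for SESN1 and 3.81e-05 for DRAM1). Cornified layer markers, which SFN accompanies in squamous epithelium, were lower in the same libraries, with 7 of 7 called lower and a summed CPM of 173 to 1370 in organoids and 22500 to 48400 in papillae. Their part in the SFN difference was not tested.

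Of 7 tested p53 targets in cell death besides the 9 genes, 5 were called higher and 2 lower, against 32.4% and 35.1% of all genes tested. AEN, an apoptosis-enhancing nuclease, rose 4.84-fold (adjusted p = 3.49e-07) and TRAF4 2.17-fold (adjusted p = 6.58e-05), while PERP, a desmosome protein of epithelia, fell 2.05-fold (adjusted p = 0.000919). In the pro-apoptotic part of the BCL2 family, apart from the 9 genes, 4 of 7 were called higher and 2 lower. BCL2L11 (BIM) rose 5.11-fold (adjusted p = 2.86e-05) and BID 2.18-fold, whereas BOK fell 10.8-fold (adjusted p = 8.18e-08). HRK had 1 count in organoids and 130 in papillae, a ratio of 197 in favour of papillae (exact 95% interval 34.8 to 7860). Of 4 tested anti-apoptotic members, BCL2L1 (BCL-X) was called, 2.02-fold higher (adjusted p = 3.74e-05), and the other 3 were not.

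Downstream of the mitochondrion, 9 of 14 apoptosome genes, caspases and caspase inhibitors were called higher and 1 lower. CASP6, a caspase, rose 3.96-fold (adjusted p = 1.49e-05) and DIABLO, an antagonist of caspase inhibitors, 2.17-fold. The partners of death receptors did not follow FAS as a group, with 2 of 10 called higher and 4 lower. Over all genes tested, 32.4% were called higher and 35.1% lower. The adaptor FADD rose 1.37-fold (adjusted p = 0.00638), with overlap between the groups, and TNFSF10, the ligand TRAIL, fell 22.6-fold (adjusted p = 4.45e-05). These values are mRNA levels and do not measure caspase activity or dying cells.

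The integrated stress response can also reach GDF15 and BBC3. Of 14 of its genes 7 were called higher and 7 were not called, against 32.4% higher and 35.1% lower over all genes tested. DDIT4, an inhibitor of mTORC1, rose 13.6-fold (adjusted p = 8.79e-07) and ASNS, the asparagine synthetase, 3.67-fold (adjusted p = 2.43e-05). Of 17 genes of the G1/S transition 6 were called higher, among them CCND2 at 5.53-fold, and 1 lower, and of 14 G2/M and proliferation genes CDK1 alone was called (4.16-fold, adjusted p = 0.039), a call that was lost in 11 of 19 alternatives, among them the pig as a block and the fit without organoids of pig 4, where its log2 fold change was 0.74.

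**Figure D4:**
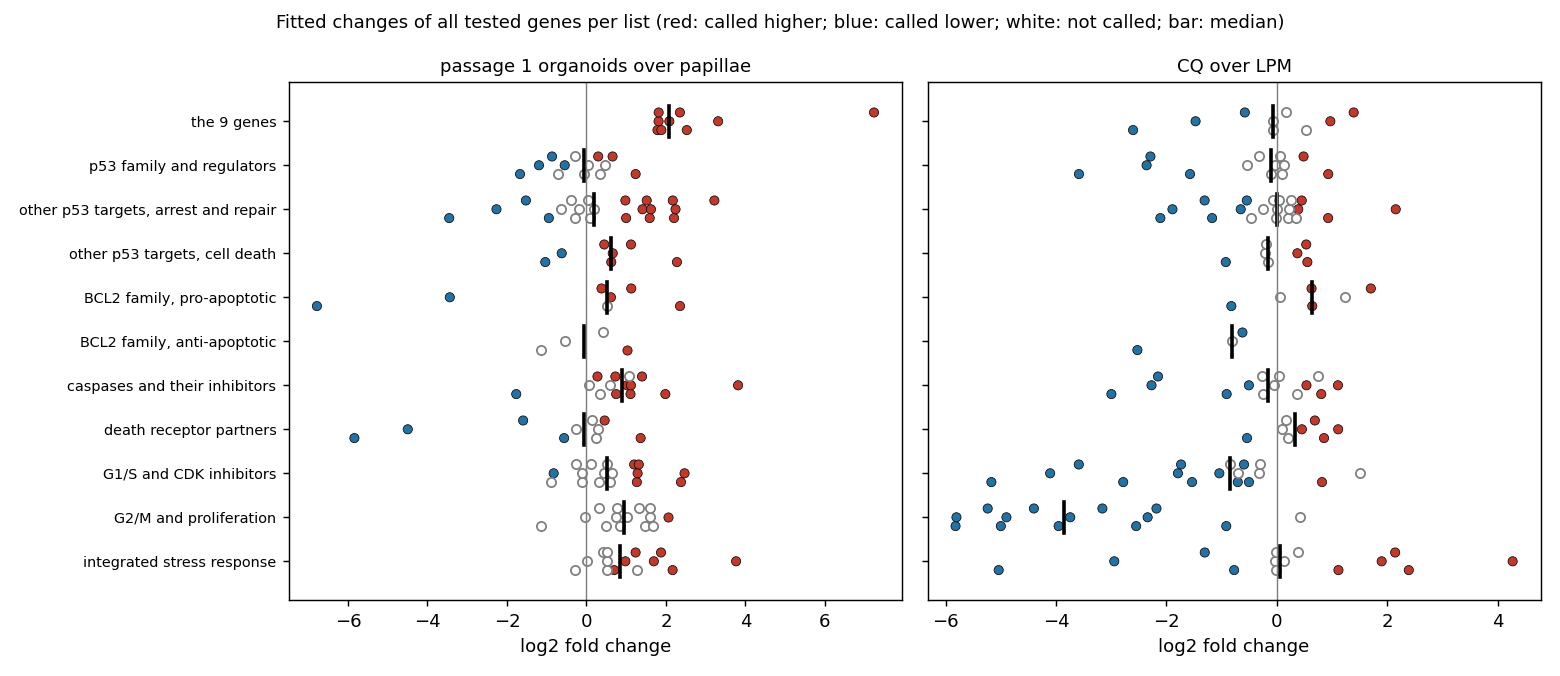
Fitted log2 fold changes of all tested genes of 11 lists, for organoids over papillae (left) and CQ over LPM (right), with red for called higher, blue for called lower, white for not called and a bar for the list's median. On the left the 9 genes lie between 1.79 and 7.23 with a median of 2.08, and on the right between -2.60 and 1.39 with a median of -0.06, while G2/M and proliferation genes on the right have a median of -3.85.

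Removal of FGF10 was tested in organoids otherwise in the same medium. The 9 p53 targets did not separate the groups. Of 14262 tested genes 2.1% passed, with 0.652% higher and 1.44% lower without FGF10 (31.1% of the calls higher, and 42.3% with library size only), and 0 of the 9 were among them by edgeR, by DESeq2 or by limma-voom, with 0 at an unadjusted p under 0.05 in each. The groups overlapped for all 9 genes, whereas 8.09% of all genes tested were higher and 8.55% lower without overlap. Their log2 fold changes were -0.13 to 0.08 with a median of 0, as for all genes tested. Every 95% interval lay between -0.30 and 0.32, so larger changes lay outside these intervals, and smaller ones may have been missed. The intervals and calls rest on a small spread between replicates, which may be technical. Its coefficient of variation in the fit was 4.06%, against 32.8% for organoids and papillae.

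CDKN1A was at 448, 484 and 433 CPM without FGF10, against 475, 446 and 421 CPM in LPM (log2 fold change 0.03, 95% interval -0.07 to 0.12, adjusted p = 0.896). Neither group was consistently higher. MDM2 was at 79.4, 78.3 and 73.9 CPM without FGF10, against 76.1, 71.3 and 77.9 CPM in LPM (0.04, interval -0.06 to 0.14), and BAX at 106, 109 and 115 CPM without FGF10, against 116, 116 and 108 CPM in LPM (-0.05, interval -0.14 to 0.04). The widest gap among the death genes was in BBC3, at 25, 26.7 and 24.6 CPM without FGF10, against 29.4, 26.6 and 27.5 CPM in LPM. Its log2 fold change was -0.13 (interval -0.27 to 0.01, adjusted p = 0.458), and 1 library without FGF10 lay above the lowest LPM library.

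CCNG1 was at 258, 257 and 242 CPM without FGF10, against 246, 246 and 263 CPM in LPM, and RRM2B at 110, 114 and 97.6 CPM without FGF10, against 113, 104 and 104 CPM in LPM, both with a log2 fold change of 0. PMAIP1 was at 7.58, 8.83 and 7.3 CPM without FGF10, against 7.55, 8.04 and 6.8 CPM in LPM. These ranges overlapped throughout. GDF15 was at 20, 21.4 and 17.7 CPM without FGF10, against 22.4, 21.9 and 18.5 CPM in LPM (-0.09, interval -0.26 to 0.08), and FAS at 10.4, 12 and 11.4 CPM without FGF10, against 12.5, 11.7 and 12.3 CPM in LPM (-0.11, interval -0.30 to 0.09). In the 10 related lists, 4 genes were called, all lower without FGF10. They were the p53 target PLK2, at 226 ± 5.19 CPM without FGF10 and 261 ± 6.21 CPM in LPM (SD, n = 3 each; 1.15-fold lower, adjusted p = 0.000591), the mitotic genes CDC20 (1.41-fold, 0.00787) and TOP2A (1.36-fold, 0.0224), and the cystine transporter SLC7A11 (1.17-fold, 0.0467). The PLK2 call was lost in the fit over all 22 libraries alone, and each of the other 3 was also lost without 1 or more single libraries.

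Transfer to CQ split the 9 genes, as it did all genes tested. CDKN1A and FAS were higher in CQ than in LPM, GDF15, RRM2B and PMAIP1 were lower, and MDM2, BAX, BBC3 and CCNG1 were not called. Of 13827 tested genes 47.7% passed, with 23% higher and 24.7% lower in CQ. The median log2 fold change was -0.06 over the 9 genes and -0.07 over all. The CQ libraries come from day 16 or 17 and no day is recorded for their LPM libraries, so culture age and medium cannot be told apart.

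CDKN1A was at 464, 406 and 464 CPM in CQ, against 225, 239 and 218 CPM in LPM. The groups were well apart (1.96-fold, log2 fold change 0.97, SE 0.095, adjusted p = 5.01e-05). FAS was at 14.1, 10.4 and 15.4 CPM in CQ, against 5.41, 4.85 and 4.94 CPM in LPM, 2.63-fold higher (log2 fold change 1.39, SE 0.256, adjusted p = 0.0019). Its lowest CQ library was still above all LPM libraries.

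GDF15 was at 1.48, 1.71 and 0.819 CPM in CQ, against 7.86, 6.81 and 9.8 CPM in LPM. It fell 6.08-fold (log2 fold change -2.60, SE 0.415, adjusted p = 0.000874), on 63 counts in CQ and 535 in LPM. RRM2B was at 49.9, 60.2 and 53.1 CPM in CQ, against 164, 160 and 129 CPM in LPM, 2.77-fold lower (log2 fold change -1.47, SE 0.133, adjusted p = 3.28e-05). LPM replicate 3 was the lowest of its group and still above all CQ libraries. PMAIP1 was at 13.7, 15.9 and 13.9 CPM in CQ, against 19.5, 22.4 and 23 CPM in LPM, 1.49-fold lower (log2 fold change -0.58, SE 0.171, adjusted p = 0.0205). That call was lost without LPM replicate 2 or 3, with an adjusted p of up to 0.0914.

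MDM2 was at 68.7, 71.8 and 94 CPM in CQ, against 86.4, 81.8 and 76.9 CPM in LPM, with the CQ libraries on both sides of the LPM range (log2 fold change -0.06, 95% interval -0.38 to 0.26, adjusted p = 0.751). BAX was at 65.2, 59.8 and 57.7 CPM in CQ, against 45.7, 48.8 and 68.3 CPM in LPM (0.17, interval -0.21 to 0.54, adjusted p = 0.443). LPM replicate 3 stood above the CQ libraries and the other LPM libraries below them, and without it BAX was called higher (adjusted p = 0.0422). BBC3 was at 15.2, 9.08 and 17.5 CPM in CQ, against 9.49, 9.9 and 9.76 CPM in LPM (0.52, interval -0.09 to 1.13, adjusted p = 0.144), and it was called higher without CQ replicate 2, its low library (adjusted p = 0.0176). CCNG1 was at 565, 596 and 552 CPM in CQ, against 598, 600 and 610 CPM in LPM. Its groups did not overlap, yet the difference was 1.05-fold and was not called (adjusted p = 0.481), and 33% of all genes tested were lower and 28.2% higher in CQ with no overlap.

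Proliferation genes were far lower in the CQ libraries, where CDKN1A was higher. The summed CPM of the 14 G2/M and proliferation genes was 49.1, 39.9 and 65.1 in CQ, against 665, 637 and 640 in LPM, and 13 of the 14 were called lower, among them TOP2A (55.9-fold, adjusted p = 5.25e-06) and CCNB1 (21.1-fold, adjusted p = 1.68e-05). Of 17 genes of the G1/S transition 11 were called lower and 1, CDK4, higher. CCND1, cyclin D1, fell 12-fold (adjusted p = 2.89e-06), and CDKN1C, which encodes p57, another kinase inhibitor of the CDKN1A family, fell to 6.35 ± 3.16 CPM in CQ, against 228 ± 24 CPM in LPM (SD, n = 3 each; 36.1-fold lower, adjusted p = 2.45e-06). CDKN1A and CDKN1C thus moved in opposite directions.

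Of 13 tested p53 family members and regulators, 2 were called higher and 4 lower. Over all genes tested in CQ, 23% were called higher and 24.7% lower, shares that apply to each list below. TP63, the p53 relative of basal epithelial cells, was at 27.7 ± 3.91 CPM in CQ and 136 ± 9.5 CPM in LPM (SD, n = 3 each; 4.89-fold lower, adjusted p = 3.21e-06), and the checkpoint kinase gene CHEK2 fell 12-fold. HIPK2 fell 5.13-fold, but its LPM libraries spread widely, from 84.8 to 245 CPM, against 29.9 to 42.8 CPM in CQ. Of 20 other targets in arrest and repair 4 were called higher and 6 lower. TIGAR, a regulator of glycolysis, rose 4.45-fold (adjusted p = 6.51e-05) and PLK2 1.9-fold (adjusted p = 8.56e-05), while CCNG2, cyclin G2, fell 4.32-fold (adjusted p = 3.85e-06) and BTG2, an antiproliferative gene, 2.25-fold. Of 7 tested targets in cell death 3 were called higher, AEN, TRAF4 and BLOC1S2 at 1.29- to 1.47-fold, and PIDD1 was lower at 1.9-fold. All 4 of these calls were lost without LPM replicate 1, among other alternatives.

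Within the death machinery, BCL2L11 rose to 167 ± 10.7 CPM in CQ, against 51.4 ± 8.14 CPM in LPM (SD, n = 3 each; 3.26-fold, adjusted p = 1.68e-05), and BAK1, the partner of BAX, rose 1.55-fold, with its call lost without LPM replicate 1 or 2. Of 6 tested pro-apoptotic members 3 were called higher and 1, BID, lower (1.77-fold). Of 3 tested anti-apoptotic members 2 were called lower. BCL2L1 was at 28 ± 1.56 CPM in CQ and 162 ± 5.66 CPM in LPM (5.76-fold lower, adjusted p = 4.95e-07), and MCL1 fell 1.54-fold (adjusted p = 0.000871). Of 14 apoptosome genes, caspases and caspase inhibitors 3 were called higher and 5 lower, against 23% and 24.7% of all genes tested. CASP6 rose 1.75-fold and the apoptosome gene CYCS, cytochrome c, 2.16-fold, and BIRC5 (survivin), which also acts in mitosis, fell 7.99-fold. Of 8 tested partners of death receptors 4 were called higher, among them the adaptors TRADD (2.16-fold) and FADD (1.81-fold) and the kinase RIPK1 (1.61-fold). CFLAR, which blocks the receptor's caspase, fell 1.45-fold (adjusted p = 0.00285).

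The integrated stress response, which can also reach GDF15 and BBC3, had genes called both ways in CQ. Of 14 of its genes 5 were called higher and 4 lower, against 23% and 24.7% of all genes tested. ATF3 rose to 225 ± 16.4 CPM in CQ, against 11.7 ± 2.54 CPM in LPM (SD, n = 3 each; 19.3-fold, adjusted p = 4.64e-07), and PPP1R15A (GADD34), which restarts translation, rose 3.73-fold. DDIT4 fell to 74.7 ± 4.05 CPM in CQ, against 2460 ± 183 CPM in LPM (32.9-fold lower, adjusted p = 5.73e-08).

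Levels of the 9 genes were also placed side by side over the 6 groups on 1 TMM scale, as a description, since the experiments differ in cultures and annotation. Papillae were lowest for all 9. CDKN1A was at 463 ± 30.6 CPM without FGF10 and 457 ± 30.1 CPM in its LPM group (SD, n = 3 each), at 455 ± 191 CPM in passage 1 organoids (n = 5) and at 445 ± 33.6 CPM in CQ, 4 groups whose neighbours overlap. It was at 235 ± 9.07 CPM in the LPM group of the CQ experiment, below all CQ libraries but within the range of passage 1 organoids (192 to 666 CPM). Papillae, at 127 ± 9.04 CPM (n = 5), lay below all other groups. FAS was also lowest in papillae and next in the LPM group of the CQ experiment, but its 4 upper groups, whose neighbours overlap, stood in another order. It ran from 14.8 ± 2.24 CPM in passage 1 organoids to 5.24 ± 0.305 CPM in the LPM group of the CQ experiment, which overlapped papillae at 4.34 ± 1.09 CPM.

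The LPM groups of the FGF10 and CQ experiments stood at unlike levels for several of the 9 genes, with no test made. BAX was at 116 ± 5.37 CPM in LPM of the FGF10 experiment and 56.3 ± 13.3 CPM in LPM of the CQ experiment (SD, n = 3 each), BBC3 at 28.4 ± 1.55 CPM in the FGF10 experiment and 10.1 ± 0.234 CPM in the CQ experiment, and GDF15 at 21.4 ± 2.28 CPM in the FGF10 experiment and 8.45 ± 1.66 CPM in the CQ experiment. In the other direction, PMAIP1 was at 7.63 ± 0.663 CPM in LPM of the FGF10 experiment and 22.4 ± 2.03 CPM in LPM of the CQ experiment, CCNG1 at 257 ± 8.41 CPM in the FGF10 experiment and 624 ± 12.7 CPM in the CQ experiment, and RRM2B at 109 ± 6.02 CPM in the FGF10 experiment and 156 ± 18.3 CPM in the CQ experiment. Among the organoid groups MDM2 ran from 98.4 ± 15.1 CPM in passage 1 to 76.7 ± 3.31 CPM in LPM of the FGF10 experiment, with each neighbour overlapping the next.

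Levels can be compared between genes only per length of annotated exons. Per kilobase, CDKN1A, CCNG1 and BAX took the top 3 places in all 6 groups. In passage 1 organoids the mean level was 213 CPM per kb for CDKN1A, 163 for CCNG1 and 137 for BAX, followed by MDM2 at 24.3, RRM2B at 23.4, GDF15 at 19.5, BBC3 at 13.8, PMAIP1 at 9.3 and FAS at 5.12. In papillae CDKN1A stood at 59.7 CPM per kb and GDF15, the lowest, at 0.131. GDF15 was also lowest in CQ, at 1.24 CPM per kb, and FAS was lowest in the other 4 groups.

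The genes most like each member in level over the 22 libraries were ranked by Pearson's r of log2(CPM + 1) among 10288 genes with a mean of at least 10 CPM. The libraries fall into 6 groups, so these values mostly reflect shared differences between groups and are given as a description. For CDKN1A they were RETREG2 (0.958), SH3RF1 (0.952) and ADAM17 (0.947), and for MDM2 they were NFIL3 (0.97), CXADR (0.964) and IFNAR1 (0.963). BAX was nearest to ARPC1B (0.992), MGMT (0.987) and LSR (0.975), BBC3 to IER5 (0.949), RNASEK (0.944) and RARA (0.938), and PMAIP1 to EIF2S3 (0.981), RPL7A (0.979) and YWHAE (0.978). None of the 9 had another of the 9 among its 3 nearest. CCNG1 was nearest to YES1 (0.984), PIGF (0.983) and TFAM (0.981), GDF15 to HMGA1 (0.981), XPC (0.97) and SPINT2 (0.97), FAS to WDR33 (0.917), SF3B2 (0.917) and PLK2 (0.908), and RRM2B to SLC4A7 (0.988) and LOC100624226 (0.982).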

How the data were processed

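RNA sequencing counts of 22 pig libraries in 6 groups were used. The authors deposited raw counts of read pairs per gene, not normalized, made with featureCounts; per the file headers, version 2.0.3 served 16 libraries and 2.0.6 the 6 libraries of the CQ experiment. The submitters' processing notes also name STAR 2.7.10b, FastQC 0.11.9, MultiQC 1.14 and DESeq2. Strand was ignored and multi-mapping pairs were left out, per the file headers. An entry without a gene name (0.326 to 0.477% of counts) was left out in the CQ experiment.

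Each comparison was fitted on its own 2 groups with edgeR 4.0.16 in R 4.3.3 (TMM, filterByExpr, robust quasi-likelihood test, p-values adjusted by Benjamini-Hochberg over every tested gene), and genes were called at an adjusted p under 0.05. Fold changes and SE come from the fit. The procedure was also run on simulated data, but the outcome is not reported here and no conclusion is drawn from it. Alternatives were RLE size factors, library size only, no low-count filter, a mean count of at least 50, DESeq2 1.42.0, limma-voom 3.58.1, a replicate block, 1 fit over all libraries, leaving out each library, and, added after seeing the data, non-robust estimation. Papillae and organoids come from the same pigs per the labels, so the block pairs them. The correlation of deviations within pigs was low (0.028 to 0.114). It was below the best with another pig for pigs 1 and 2 (0.048 and 0.112) and above it for pigs 3, 4 and 5.

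The 9 genes and the related lists were chosen with earlier results of these data known. Beside the 9 genes, the text names members of each list with the smallest p, at most 3 in each direction, or its most abundant gene where no call was made. A few genes the rule would name are not reported here. Library totals were 14.67 to 27.77 M counts, and intervals on counts cover counting error only.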

Additional observations from a re-analysis of the deposited data

Results flagged for a closer look

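In the groups of 5 libraries, 100 sets of values were screened for a single library far from the other 4, and 11 stood out. Chance alone flags about 1 in 20 such sets, 5 here. Among the 9 p53 targets there was 1, RRM2B, at 6.8 CPM in the papilla of pig 2 and at 11.2 to 12.7 CPM in the other papillae. In papillae BAK1 was low in pig 1 (26.1 CPM, others 30 to 30.9) and CASP6 high in pig 5 (16.7 CPM, others 10.2 to 11.6).

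Of the 8 flags in organoids 4 fell on pig 4. These were the summed G2/M and proliferation genes (1160 CPM, others 39.5 to 160), CDK1 (69.2 CPM, others 2.28 to 17.3), TP73 (15 CPM, others 8.93 to 9.88) and CCND2 (31.4 CPM, others 40.1 to 41.7). Organoids of pig 5 were high in DDIT4 (1490 CPM, others 663 to 811) and low in USP7 (104 CPM, others 128 to 136). Organoids of pig 2 were low in PIDD1 (12.1 CPM, others 15.6 to 16.6). HRK was at 0.0407 CPM in organoids of pig 1, which is its only count in that group.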

How the results depend on the processing

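For organoids against papillae, all 9 p53 targets kept their direction and call in each of 19 alternatives, the pig as replicate block included (10666 genes called in place of 10999). With library size only, the median log2 fold change of all genes moved from -0.007 to 0.281 and the share of calls that were higher from 48% to 59.6%. For FGF10 no alternative called any of the 9. Of 299 genes called in all, 0 were called in 1 fit over 22 libraries, and 125 to 310 without 1 library, the lowest 2 being 127 without LPM replicate 2 and 125 without replicate 1 lacking FGF10. Signs near 0 turned, with no call. In the 22-library fit CCNG1 was at -0.003117, RRM2B -0.004312, USP7 -0.006009 and RIPK1 -0.003317. USP7 was at -0.0009541 without a filter and -0.0001972 with the replicate block. Without 1 library the log2 fold changes ran from -0.02245 to 0.0714 for CDKN1A, -0.008371 to 0.14 for PMAIP1, -0.01215 to 0.03495 for CCNG1, -0.04533 to 0.06481 for RRM2B, -0.02914 to 0.03892 for USP7, -0.0088 to 0.1049 for BMF, -0.05786 to 0.001818 for MCL1, and -0.01887 to 0.02183 for RIPK1. The cause of these changes was not tested. For CQ, 5 of the 9 genes kept call and direction in all 15 alternatives. The others changed a call without 1 library, as given with their values, except MDM2, never called, which turned sign with library size only (0.00962) and without CQ replicate 1 (-0.2311 to 0.008413 without 1 library). Correlations between libraries of the same replicate number were low in the FGF10 and CQ experiments (-0.129 to 0.122 and -0.081 to 0.054). Those within pigs were low too, so the values do not decide whether the numbers pair libraries. The block, with 271 and 6127 genes called, changed no call of the 9 genes.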
